A study of Mus musculus with 16 samples.

Results

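Toll-like receptor (TLR) genes were followed in the H3K9me3 and H3K9me2 maps of small intestinal crypts from wild type (WT) and Smarcad1-KO mice. The 9 genes taken by name were Tlr1, Tlr2, Tlr3, Tlr4, Tlr5, Tlr6, Tlr9, Tlr11 and Tlr12. Every H3K9me3 peak that the deposited table assigned to one of them, because it overlapped the gene or lay within 5 kb of it, was included. This gave 39 of 212313 H3K9me3 peaks, and these lay at 4 of the 9 genes. Tlr4 held 34 peaks, Tlr1 held 3, and Tlr2 and Tlr6 held 1 each. Among 47065 H3K9me2 regions, 5 overlapped or listed one of the genes. Trimethylated and dimethylated lysine 9 of histone H3 were measured by chromatin immunoprecipitation with sequencing (ChIP-seq), with 3 WT and 3 KO libraries for each mark and, for each genotype and mark, 1 input of sonicated chromatin that saw no antibody.

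Both genotypes were male mice on a C57BL/6 background, and the labels gave no ages. In KO mice, Smarcad1, a chromatin remodeling factor, carried loxP sites in both copies (Smarcad1 fl/fl) and was deleted by a Cre recombinase under the Villin promoter, which is active in the epithelium of the intestine. WT libraries were labeled as wild type, with no further alleles stated. Whole crypt isolates were used without sorting, so cells in which Villin-Cre is not active can be part of a library, and a change in the share of a cell type cannot be told apart from a change of the mark per cell.

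TLRs are membrane receptors of innate immunity that recognize conserved molecules of microbes. Those at the cell surface read bacterial products. TLR2 pairs with TLR1 or TLR6 to bind lipopeptides, TLR4 binds lipopolysaccharide together with MD-2 (gene Ly96), and TLR5 binds flagellin. TLR3, TLR7, TLR8, TLR9 and TLR13 read nucleic acids in endosomes, and mouse TLR11 and TLR12 bind profilin of Toxoplasma. In the intestine, where the epithelium faces a dense microbiota, TLR levels are kept under tight control. H3K9me3 is a mark of repressed chromatin that is found over many repeats and silent gene clusters.

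H3K9me3 reads in peaks numbered 9725752 to 11505553 in WT and 7064131 to 11831850 in KO, with KO1 the shallowest, and the inputs held 8838386 (WT) and 8452186 (KO). Neither table held a peak or region at Smarcad1, so the deletion itself could not be checked. The libraries could be checked at Vil1, the gene whose promoter drives Cre in this line. The Vil1 peak held 50, 46 and 47 reads in WT1, WT2 and WT3. In KO1, KO2 and KO3 the counts were 3515, 4716 and 4728, which are extrapolated, since counts could be recovered exactly only up to 252, 455 and 376 in these libraries. The inputs, whose counts are direct, held 296 (WT) and 3288 (KO). Over all H3K9me3 peaks, 2.46% were called lower in KO and 0.252% were called higher (limma, Benjamini-Hochberg adjusted p-value under 0.05), and the median log2 difference was 0.03. The tables measured no RNA, so the tissue could not be checked by expression. Of the marker genes listed for epithelium, 3 of 11 held an H3K9me3 peak, as did 2 of 7 for immune cells.

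Each of the 3 TLR peaks called higher in KO overlapped coding sequence, and the sequences below are taken from 2 of them. Positions are on GRCm38, and all sequences are given 5′ to 3′ on the strand of the gene. Tlr1 (chromosome 5, 64924679 to 64933563) and Tlr2 (chromosome 3, 83836272 to 83841767) are both on the reverse strand, and each carries its whole reading frame in 1 exon. The first stretch of each reading frame lay inside a peak called higher in KO. The start codon is in capitals.
Tlr1, chr5:64927083-64927232: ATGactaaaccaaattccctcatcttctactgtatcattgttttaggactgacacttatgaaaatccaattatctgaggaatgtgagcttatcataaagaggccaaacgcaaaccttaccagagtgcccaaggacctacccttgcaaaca
Tlr2, chr3:83838625-83838774: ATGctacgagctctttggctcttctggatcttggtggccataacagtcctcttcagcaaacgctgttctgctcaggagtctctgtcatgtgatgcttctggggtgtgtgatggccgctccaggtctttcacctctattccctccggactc
The Tlr1 stretch held 1 CpG in 150 bases and 40% GC, and the Tlr2 stretch held 4 CpG and 53.3% GC.

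Tlr6 (chromosome 5, 64952031 to 64960097, reverse strand) is the closest relative of Tlr1 and lies beside it. Over 2361 aligned coding bases, 75.6% were identical between Tlr1 and Tlr6, against 57.7% of 2213 between Tlr1 and Tlr2. The longest identical run was 229 bases, printed here in capitals with its flanking bases because reads from this stretch can align to either gene.
Tlr1, chr5:64925527-64925775: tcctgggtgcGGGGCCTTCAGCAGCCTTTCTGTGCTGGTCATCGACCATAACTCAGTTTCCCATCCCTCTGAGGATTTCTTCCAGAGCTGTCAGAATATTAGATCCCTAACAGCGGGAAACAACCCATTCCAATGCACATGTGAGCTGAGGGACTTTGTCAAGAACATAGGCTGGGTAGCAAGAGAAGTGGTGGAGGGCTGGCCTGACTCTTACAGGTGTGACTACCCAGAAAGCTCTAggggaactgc
Tlr6, chr5:64953818-64954066: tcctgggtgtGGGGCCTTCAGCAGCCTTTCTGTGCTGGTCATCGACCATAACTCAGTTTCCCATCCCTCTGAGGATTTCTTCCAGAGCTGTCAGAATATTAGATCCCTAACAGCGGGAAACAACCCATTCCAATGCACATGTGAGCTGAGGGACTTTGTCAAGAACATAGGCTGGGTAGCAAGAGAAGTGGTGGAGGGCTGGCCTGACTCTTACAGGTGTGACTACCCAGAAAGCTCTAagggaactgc
Of the 3 blocks of Tlr1 coding sequence in which every 100-base window was also found in Tlr6, 208 and 229 bases lay wholly between the 2 coding peaks of Tlr1, and the last had 35 of 119 bases inside a peak. The gap between these peaks measured 600 bp. The reads had been filtered on mapping quality, and the part of that filter in the gap was not tested. Within coding sequence, these 35 bases were thus all that the peaks shared with Tlr6 over 100 bases, the length of 1 read.

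H3K9me3 was called higher in KO over the coding exon of Tlr1 and over the coding exon of Tlr2. None of these calls passed in every test given below, and the input was also higher in KO at each of these peaks. Of the 39 peaks, 3 were called higher and 0 were called lower, against 0.252% and 2.46% of all peaks. The 3 were 2 of the 3 peaks at Tlr1 and the single peak at Tlr2, and TLR1 and TLR2 form a receptor pair. The study itself named Tlr2 as an example on these libraries, so its direction is not independent evidence. By annotation, 74.8% of Tlr1 coding bases and 100% of Tlr2 coding bases lay in peaks, and no coding base of Tlr6 did.

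The peak at the 3′ end of Tlr1 (chromosome 5, 64923901 to 64925250) held 21, 20 and 24 reads in WT1, WT2 and WT3 and 41, 44 and 38 reads in KO1, KO2 and KO3. It covered the last 403 coding bases, the 3′ untranslated region and 778 bp past the gene. Each KO library held more reads than each WT library, although KO1 was the shallowest of the 6. Scaled to depth as reads per 1000000 reads in peaks of the library (RPM), KO1 stood at 5.80, KO2 at 3.72 and KO3 at 3.77, against 1.86 to 2.09 in WT. On the deposited log2 scale, in which the 6 ChIP libraries have matched distributions, the mean was 4.34 ± 0.08 (SD, n = 3) in WT and 5.45 ± 0.36 in KO, a difference of 1.12 (SE 0.23, limma adjusted p = 0.0011) or 2.17-fold. The inputs held 34 (WT) and 39 (KO) reads. As a log2 ratio of ChIP over input, WT stood at -0.92 ± 0.09 and KO at -0.09 ± 0.37. Both libraries of a ratio were scaled to reads in peaks, so a ratio of 0 is that of all H3K9me3 peaks pooled and is not the level of input.

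The second Tlr1 peak (chromosome 5, 64925851 to 64927350) covered 1382 coding bases including the start codon. It held 31, 26 and 35 reads in WT and 39, 62 and 66 reads in KO, which were 2.67 to 3.04 RPM in WT and 5.24 to 6.54 RPM in KO. Both genotypes were again apart. The log2 level was 4.83 ± 0.10 in WT and 5.85 ± 0.16 in KO (n = 3), a difference of 1.02 (SE 0.19, limma adjusted p = 0.00033) or 2.03-fold. The input rose in the same direction, from 23 reads in WT to 33 in KO, a log2 ratio of 0.57 after scaling to depth. The test with the input subtracted used the deposited log2 input values, which are not scaled to depth. In that test the difference was 0.50 and no longer passed the threshold (limma adjusted p = 0.073). Each input was a single library, so its own error is unknown. For the 3′ peak, the same subtraction of unscaled input values left a difference of 0.92 (limma adjusted p = 0.0045), in a test that called 19.6% of all peaks higher.

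The third Tlr1 peak (chromosome 5, 64938001 to 64938900) began 4438 bp upstream of the start site and 73.9% of it was repeat-masked sequence, against 24.9% and 2.8% of the coding peaks. Its values ran the other way, with 33, 22 and 24 reads in WT and 13, 22 and 18 in KO, a log2 difference of -0.39 (SE 0.27) that did not pass the threshold (limma adjusted p = 0.67).

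The Tlr2 peak (chromosome 3, 83836351 to 83839500) spanned the whole reading frame. WT1, WT2 and WT3 held 106, 106 and 94 reads and KO1, KO2 and KO3 held 88, 167 and 144. In RPM these were 8.17 to 10.9 in WT and 12.5 to 14.3 in KO, so the low count of KO1 went with its depth and the genotypes were apart. The log2 level was 6.58 ± 0.20 in WT and 7.10 ± 0.09 in KO (n = 3), a difference of 0.52 (SE 0.12, limma adjusted p = 0.0071) or 1.4-fold. Its inputs held 71 (WT) and 87 (KO) reads, and with their ratio subtracted the difference was 0.23 (limma adjusted p = 0.18). The Tlr2 call was also lost without WT replicate 3 (0.42, adjusted p = 0.12) and, narrowly, without KO replicate 3 (0.50, adjusted p = 0.052). In limma without a trend of variance on level, none of the 3 higher calls passed, with an adjusted p of 0.085 and 0.067 at Tlr1 and 0.31 at Tlr2, and 0.00754% of all peaks were called higher. With DESeq2, which called 0.0815% of the 154685 peaks it tested higher, both Tlr1 calls passed and Tlr2 did not (DESeq2 adjusted p = 0.12).

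Per kb of peak, WT H3K9me3 was 1.48 ± 0.09 RPM at the 3′ Tlr1 peak, 1.88 ± 0.13 at the 5′ coding peak and 3.01 ± 0.43 at Tlr2. In KO these levels were 3.28 ± 0.88, 3.85 ± 0.46 and 4.32 ± 0.32. The inputs per kb also differed between these peaks, at 2.85, 1.73 and 2.55 RPM in WT and 3.42, 2.60 and 3.27 in KO. The order of the peaks thus depends on the scale: per kb Tlr2 was the highest in KO, and over input the 5′ coding peak of Tlr1 was, at 0.54 ± 0.16 against 0.40 ± 0.11 at Tlr2.

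**Figure D1:**
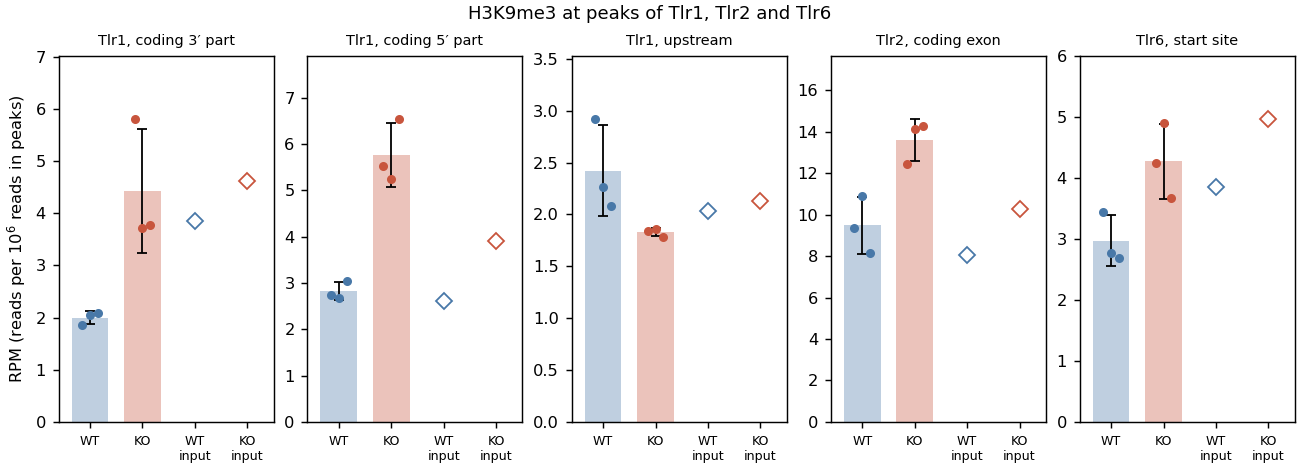
H3K9me3 RPM (reads scaled to all reads in peaks) at the 5 peaks of Tlr1, Tlr2 and Tlr6. Circles are single libraries, bars are means with SD (n = 3), and diamonds are the single input of each genotype. KO libraries lie above WT libraries at both coding peaks of Tlr1 and at Tlr2 and Tlr6, and below them upstream of Tlr1, and the KO input lies above the WT input in every panel.

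Tlr6 had a single peak (chromosome 5, 64959001 to 64960500), and it lay over the start of the gene. It held 2 annotated start sites and 164 bases of noncoding exon in GENCODE M21, while the RefSeq gene begins farther upstream, at 64970942. The part of the peak directly before the GENCODE start is printed below, with bases outside repeat-masked sequence in capitals.
Tlr6 upstream, chr5:64960098-64960297: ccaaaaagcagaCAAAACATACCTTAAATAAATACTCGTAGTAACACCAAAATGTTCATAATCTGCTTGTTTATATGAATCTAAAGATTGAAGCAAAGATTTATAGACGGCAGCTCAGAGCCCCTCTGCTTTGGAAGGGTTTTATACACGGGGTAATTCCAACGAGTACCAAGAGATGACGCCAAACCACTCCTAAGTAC
This stretch held 5 CpG in 200 bases. WT libraries held 39, 27 and 31 reads and KO libraries 30, 58 and 37, or 2.69 to 3.45 and 3.67 to 4.90 RPM. The values did not overlap once scaled to depth, yet the log2 difference of 0.52 (SE 0.21) did not pass the threshold over all peaks (limma adjusted p = 0.26). The log2 ratio over input, relative to all peaks together, stood at -0.38 ± 0.19 for WT and -0.23 ± 0.20 for KO. Among all peaks, 7.3% had all 3 KO values above all 3 WT values, and 8.21% had them below. Among the 5 peaks of Tlr1, Tlr2 and Tlr6, 4 were above and 1 was below.

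Peaks called around these genes were lower in KO. Within 100 kb of the Tlr1 and Tlr6 pair, a distance set after the values were seen, 12 other H3K9me3 peaks were found, of which 5 were called lower and 0 higher, against 2.46% and 0.252% of all peaks. The median log2 difference was -0.34, and the values of 2 of the 12 were above 0. All but 1 of them lay on the Tlr1 side, toward Klf3, and the called peak closest to Tlr1 (64914301 to 64917450) fell by 0.48 (SE 0.13, limma adjusted p = 0.026), from 112, 116 and 126 reads in WT to 57, 95 and 75 in KO. The peak at Klf3, which encodes a Kruppel-like transcriptional repressor, fell by 1.1 (SE 0.13, limma adjusted p = 5.86e-08). Around Tlr2, 6 other peaks lay within 100 kb, 2 were called lower and 0 higher, and the median was -0.57. The strongest of these by p (chromosome 3, 83871451 to 83877450) held 321, 280 and 323 reads in WT and 100, 210 and 168 in KO, a difference of -0.80 (SE 0.10, limma adjusted p = 9.34e-08).

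Ratios over input are given for the neighbors and the coding peaks side by side, and their difference was not tested. The median log2 ratio of WT ChIP over input was 0.70 ± 0.03 (SD over 3 libraries) at the neighbors of Tlr1 and Tlr6 and 0.55 ± 0.18 at the neighbors of Tlr2, while in KO these medians were 0.02 ± 0.16 and -0.04 ± 0.15. At the 3 coding peaks called higher, the WT ratios were -0.92, 0.10 and 0.22 and the KO ratios were -0.09, 0.54 and 0.40. The neighbors of Tlr2 had WT ratios from 0.04 to 1.22, a range that holds the Tlr2 value. Over all peaks the median was -0.06 ± 0.01 in WT and -0.02 ± 0.02 in KO, and reads outside peaks were not used.

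**Figure D2:**
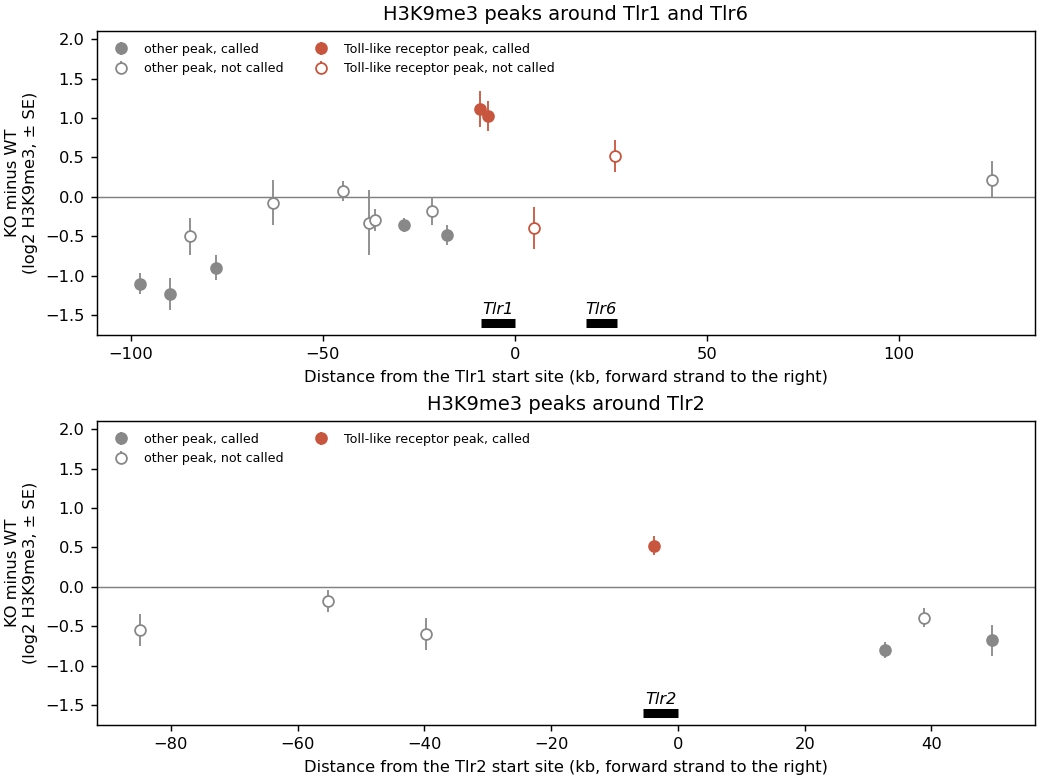
Log2 difference of H3K9me3 (KO minus WT, ± SE of limma) at peaks within 100 kb of Tlr1 and Tlr6 (top) and of Tlr2 (bottom), against distance from the start site of Tlr1 or Tlr2 in kb. Filled points passed the adjusted p-value of 0.05. The TLR coding peaks stand at 0.52 to 1.12, and the called neighbors between -1.24 and -0.36.

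At Tlr4, the receptor for lipopolysaccharide, no peak passed the threshold in either direction, and the values of most peaks were slightly lower in KO. The gene spans 66827584 to 66930284 on chromosome 4 in GENCODE M21 (forward strand). This length of 102.7 kb comes from 1 long transcript, which joins the first 2 exons to distant last exons near 66924366 and 66929018. The main coding transcript is shorter, at 15.2 kb, and ends at 66842800, and the RefSeq gene ends at 66846581. Of the 34 peaks, 6 reached into the RefSeq gene and 28 lay wholly past its end, so most of what the table assigns to Tlr4 is the long intron behind the receptor gene. No peak covered a start site. The first peak began 1917 bp from the start, 4 peaks overlapped an exon, and 1 peak lay outside, 3617 bp past the end of the gene.

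Summed over its 34 peaks, Tlr4 held 127, 122 and 121 RPM in WT1, WT2 and WT3 and 112, 106 and 103 in KO1, KO2 and KO3. The genotypes did not overlap. The means were 123 ± 3.0 in WT and 107 ± 4.5 in KO (n = 3), a difference of -13.1%. The inputs were in the opposite order, at 119 in WT and 126 in KO. In the flanks, taken as 500 kb to each side and holding 299 peaks, the sums were 1464 ± 20 RPM in WT and 1482 ± 48 in KO, and 0 peaks were called. No p is given for these sums.

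Peak by peak, 27 of 34 log2 differences were below 0, against 45.3% of all peaks and 52.2% of the flanking peaks. The median was -0.17, against 0.03 for all peaks and -0.01 for the flanks, and the range was -0.59 to 0.50. All 3 KO values lay below all 3 WT values at 4 of the 34 peaks, against 8.21% of all peaks. At 0 of the 34 did they lie above, against 7.3% of all peaks. At an unadjusted limma p under 0.05 there were 5 of 34 peaks, near the 10.8% of all peaks. With edgeR on recovered counts, 1 of the 34 was called lower, against 2.74% of all peaks. With DESeq2 none was, against 1.47% of the peaks it tested. Neighboring peaks of 1 gene share libraries and are not independent of each other.

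The peak of smallest p was also the widest, at 3750 bp (66878551 to 66882300), in the long intron. It held 123, 92 and 105 reads in WT and 50, 92 and 69 in KO. The log2 level was 6.63 ± 0.14 in WT and 6.19 ± 0.10 in KO, a difference of -0.45 (SE 0.14, limma adjusted p = 0.068), which edgeR on recovered counts put just past the threshold (edgeR adjusted p = 0.048). On the scale where 0 stands for all peaks together, WT had a log2 ratio over input of 0.41 ± 0.13 and KO of -0.51 ± 0.09. The inputs moved oppositely, with 65 reads in WT and 87 in KO. Its central 200 bases are shown, and none of them is repeat-masked.
Tlr4 intron, chr4:66880326-66880525: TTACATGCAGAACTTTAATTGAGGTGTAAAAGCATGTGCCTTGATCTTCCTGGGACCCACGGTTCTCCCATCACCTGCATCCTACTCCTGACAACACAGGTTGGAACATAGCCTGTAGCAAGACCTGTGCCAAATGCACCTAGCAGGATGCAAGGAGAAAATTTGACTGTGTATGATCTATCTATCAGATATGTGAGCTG
This stretch held 1 CpG and 45.5% GC.

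The lowest difference, -0.59 (SE 0.20, limma adjusted p = 0.15), was at 66925201 to 66926850, between the last exons of the long transcript, where WT held 53, 42 and 47 reads and KO 24, 28 and 31. The highest, 0.50 (SE 0.33, limma adjusted p = 0.66), was at 66853501 to 66854100, with 10, 16 and 17 reads in WT and 16, 16 and 19 in KO. Neither passed the threshold, and the latter rests on few reads.

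The 4 peaks over exons did not pass the threshold. The peak at the start of the large coding exon (66838651 to 66839700, 472 coding bases) held 19, 39 and 26 reads in WT and 19, 23 and 21 in KO, a log2 difference of -0.16 (SE 0.27). The next (66840601 to 66841950, 876 coding bases and the start of the 3′ untranslated region) held 42, 30 and 45 against 25, 42 and 32, a difference of -0.06 (SE 0.20). The peak at the end of the 3′ untranslated region (66842101 to 66842850) held 18, 17 and 22 against 11, 28 and 13, a difference of -0.05 (SE 0.30). At the penultimate exon of the long transcript (66923851 to 66925050) the reads were 28, 38 and 39 in WT and 23, 21 and 17 in KO, a difference of -0.58 (SE 0.25, limma adjusted p = 0.35). The adjusted p of the first 3 lay between 0.91 and 0.98.

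**Figure D3:**
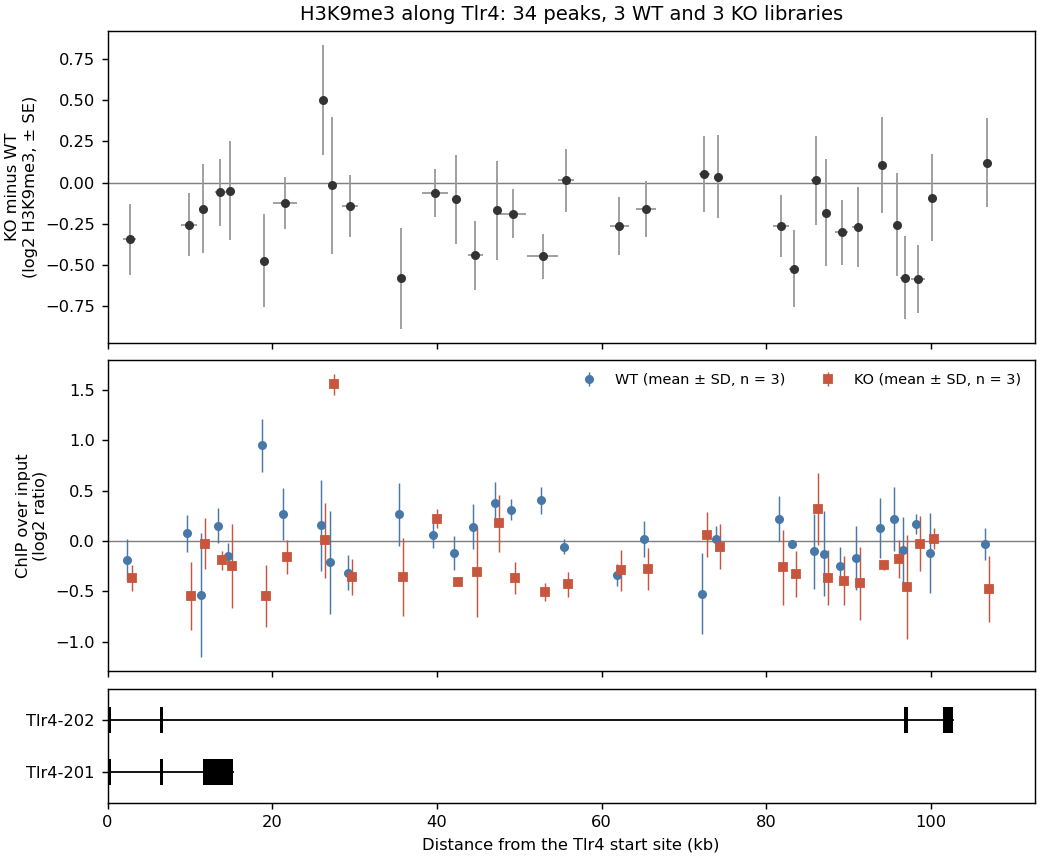
H3K9me3 along Tlr4 by distance from the start site in kb. Top, log2 difference (KO minus WT) with SE, horizontal bars giving peak width. Middle, log2 ratio of ChIP over input (mean ± SD, n = 3), where 0 stands for all peaks together. Bottom, exons of the 2 coding transcripts. Of the 34 peaks, 27 lie below 0 in the top panel and none was called.

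Tlr4 had about the same ratio over input in WT as the H3K9me3 peaks together. The median log2 ratio over the 34 peaks was 0.02 ± 0.04 (SD over 3 libraries) in WT and -0.23 ± 0.09 in KO, against -0.06 and -0.02 over all peaks, and no Tlr4 peak reached a 2-fold ratio in WT, against 3.21% of all peaks. KO lay below WT at 27 of 34 peaks on this scale. Each ratio rests on 1 input library per genotype. With the input of the other genotype used instead, the medians were -0.067 in WT and -0.13 in KO. The highest WT ratio was 0.95 ± 0.26 at 66846151 to 66847050, where WT held 30, 18 and 29 reads over 10 input reads and KO held 10, 26 and 15 over 21. The next were 0.41 at the widest peak and 0.38 ± 0.21 at 66874501 to 66875250. The lowest was -0.54 ± 0.62, at the start of the large coding exon. In KO, 1 ratio stood apart, 1.56 ± 0.10 at 66854701 to 66855000, where the KO input held 2 reads and the KO libraries 7, 11 and 9.

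With the input difference subtracted in the test, 4 of 34 Tlr4 peaks were called lower and 2 were called higher. This test called many more peaks everywhere, 10.3% of all peaks lower and 19.6% higher, so the Tlr4 counts do not stand above that background. The higher ones were the peak with 2 KO input reads, which went from -0.02 to 2.3, and the peak at 66899401 to 66900750. The lower ones included the widest peak, at -0.87 (SE 0.15, limma adjusted p = 3.70e-05), and the peak of highest WT ratio, at -1.54 (SE 0.33, limma adjusted p = 0.00062).

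Tlr4 peaks had a median width of 1275 bp, a GC content of 32.7 to 48.8% and a median of 16.5% repeat-masked bases, against 35.2% for all peaks. The 25 peaks of the long intron had a median difference of -0.17, the 5 peaks in the short transcript of -0.16, and the 4 at or past the last exons of the long transcript of -0.33. The nearest annotated genes were the pseudogenes Gm11220, 102 kb before Tlr4, and Gm11403, 235 kb after it. They held 3 and 4 peaks with medians of -0.08 and -0.17. The nearest coding genes, Astn2 and Brinp1, held 239 and 68 peaks with medians of 0.11 and 0.06.

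**Figure D4:**
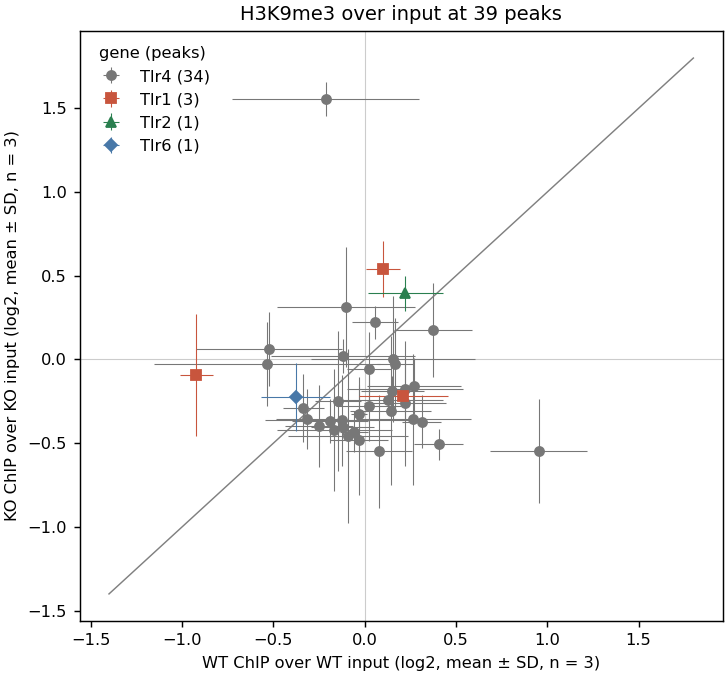
Log2 ratio of H3K9me3 ChIP over input in KO (y) against WT (x) at the 39 TLR peaks, mean ± SD of 3 libraries. A ratio of 0 stands for all peaks together, and the diagonal marks equal ratios. Most Tlr4 peaks lie below it, and the 2 coding peaks of Tlr1 and the peaks of Tlr2 and Tlr6 lie above it.

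The other 5 genes had no H3K9me3 peak over them or within 5 kb. The nearest peak was 17171 bp away at Tlr3, 20188 bp at Tlr5, 64598 bp at Tlr9, 11738 bp at Tlr11 and 56782 bp at Tlr12. A gene without a peak has no value in the table, so no difference could be measured there. The peak nearest to Tlr9, at D030055H07Rik, was higher in KO by 0.91 (limma adjusted p = 0.027), and the other nearest peaks did not pass the threshold, with differences of 0.24, -0.35, -0.34 and -0.59. Of the remaining TLR genes of the mouse, Tlr8 and Tlr13 had no peak, and Tlr7 had 1 of 450 bp. The Tlr7 peak held 20, 9 and 17 reads in WT and 5, 11 and 12 in KO, a log2 difference of -0.52 (SE 0.38, limma adjusted p = 0.71).

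H3K9me2 did not pass the threshold at any TLR gene. Of 47065 regions, 0.00212% were called lower in KO and 0% higher (edgeR quasi-likelihood F test, adjusted p under 0.05), and 0 of the 5 TLR regions were, by edgeR or by DESeq2. At an unadjusted p under 0.05 there were also 0 of 5, against 1470 of all regions. Of Tlr4, 74.3% lay in 2 regions.

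The larger Tlr4 region (chromosome 4, 66828901 to 66884550, 11 MACS peaks) held 72.5, 68.3 and 75.4 RPM (after TMM scaling) in WT and 77.0, 75.3 and 73.7 in KO, which overlap. The log2 difference was 0.06 (SE 0.05). The second (66909601 to 66931200, 5 MACS peaks) held 25.4, 22.1 and 24.9 in WT and 24.6, 25.5 and 23.7 in KO, a difference of 0.02 (SE 0.07). The third, 66820801 to 66823050, lay before the gene and gave -0.21 (SE 0.16). The Tlr3 region (chromosome 8, 45411151 to 45413100) began 71 bp upstream of the gene, and its difference was 0.03 (SE 0.18). Tlr11 lay wholly in a region of 126 kb (chromosome 14, 50344351 to 50470200), with a difference of -0.05 (SE 0.04). For all 5 the edgeR adjusted p was 1.00. The log2 ratios over input ranged from -0.15 to 0.28 in WT and from -0.12 to 0.06 in KO. No region overlapped Tlr1, Tlr2, Tlr5, Tlr6, Tlr9 or Tlr12.

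**Figure D5:**
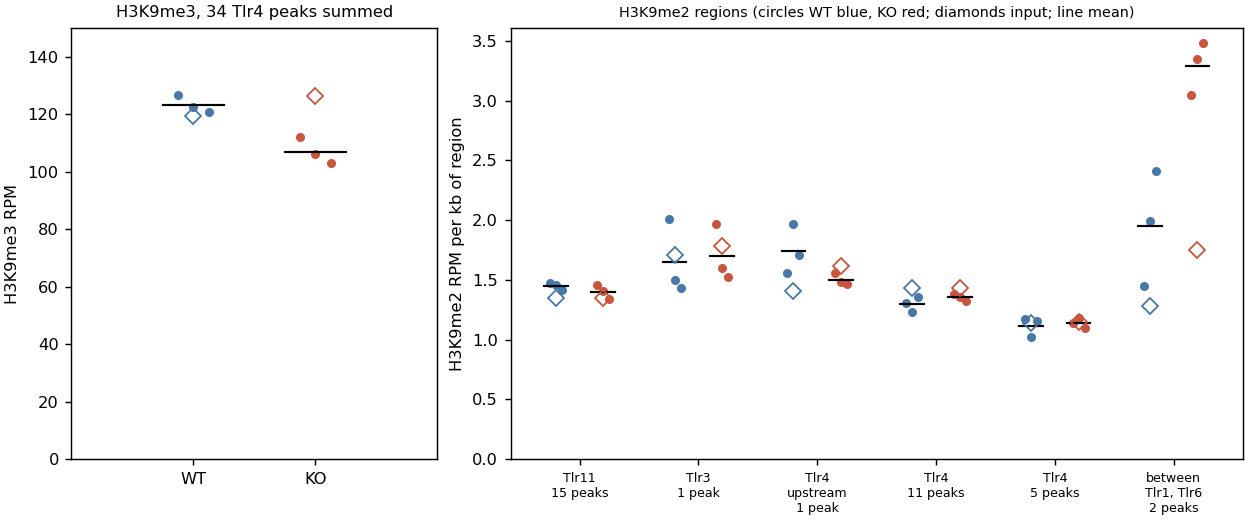
Left, H3K9me3 RPM summed over the 34 Tlr4 peaks. Right, H3K9me2 RPM per kb in the regions of TLR genes and in 1 region between Tlr1 and Tlr6. Circles are libraries, lines are means of 3, and diamonds are inputs. H3K9me3 over Tlr4 was 121 to 127 in WT and 103 to 112 in KO, while WT and KO overlap in the H3K9me2 regions of Tlr3, Tlr4 (11 and 5 peaks) and Tlr11.

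The wider TLR pathway was taken as 46 listed genes from receptors outside the 9 to inhibitors, of which 15 held 21 H3K9me3 peaks. Among these, 5 were called lower and 0 higher, against 2.46% and 0.252% of all peaks, and the median log2 difference was -0.25. With DESeq2 on recovered counts, which called 1.47% of the peaks it tested lower, 2 were called. In limma without a trend, which called 0.041% of all peaks lower, 0 were called. Peaks at marker genes gave similar medians. The 6 peaks at immune cell markers had a median of -0.25, with 5 below 0 and 0 called. The 5 peaks at epithelial markers had a median of -0.28, with 2 called lower and 1, at Vil1, called higher. At Vil1 the input rose as well, from 33.5 RPM in WT to 389 in KO. The median log2 ratio over input went from 0.26 ± 0.11 in WT to -0.34 ± 0.16 in KO at the immune markers. At the epithelial markers it went from 0.32 ± 0.17 to -0.03 ± 0.17, and at the pathway genes from 0.19 ± 0.08 to -0.07 ± 0.06. The part of cell composition in the pathway values was not tested. The 5 called pathway peaks were spread over co-receptors and ligand carriers, adaptors and kinases.

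Of the co-receptors and ligand carriers, 2 of 6 peaks fell. Ly86 encodes MD-1, the partner of the receptor homolog RP105. Its peak, inside the gene, held 133, 98 and 151 reads in WT and 46, 88 and 79 in KO, a difference of -0.69 (SE 0.14, limma adjusted p = 0.0007). Lbp encodes the lipopolysaccharide-binding protein that hands its ligand on toward TLR4. A peak 3693 bp before this gene held 93, 85 and 115 reads in WT and 45, 69 and 57 in KO, a difference of -0.60 (SE 0.15, limma adjusted p = 0.0087). Ly96, the TLR4 partner, had 1 peak with a difference of 0.03 (SE 0.28), and Cd36 had 3 peaks, none called.

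Among adaptors, Ticam2 (TRAM), which links TLR4 to TRIF, held 2 peaks. The smaller one held 43, 39 and 38 reads in WT and 13, 20 and 28 in KO, a difference of -0.86 (SE 0.24, limma adjusted p = 0.032), and the other differed by 0.03 (SE 0.17). Myd88, Tirap, Ticam1 and Sarm1 had no peak. Among 15 kinases and ubiquitin ligases, 5 held a peak each and 2 fell. Chuk encodes IKK-alpha, and its peak held 90, 70 and 110 reads in WT and 36, 37 and 38 in KO, a difference of -1.07 (SE 0.17, limma adjusted p = 2.97e-05). Irak4, the kinase recruited by MyD88, held 68, 45 and 71 in WT and 26, 46 and 32 in KO, a difference of -0.65 (SE 0.18, limma adjusted p = 0.04).

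No peak was called among the inhibitors (5 peaks, at Irak3 and Tollip), the transcription factors (1 peak, at Rel) or at Wdfy1, which was listed because the study names it. The smallest p among inhibitor peaks was at Irak3, with a difference of 0.22 (SE 0.13, limma adjusted p = 0.58). Rel gave -0.15 (SE 0.21, limma adjusted p = 0.89) and Wdfy1 0.50 (SE 0.27, limma adjusted p = 0.52). The trafficking genes Unc93b1, Hsp90b1 and Cnpy3 had no peak.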

How the data were processed

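H3K9me2 and H3K9me3 ChIP-seq libraries of 3 WT and 3 KO samples per mark, with 1 input per genotype, were grouped by their titles. The authors trimmed reads with Trim Galore 0.4.4, mapped them to GRCm38 with Bowtie2 2.3.2, kept pairs of mapping quality 20 or more without duplicates, and called MACS peaks on all ChIP libraries of a mark pooled. The deposited H3K9me3 values were log2 reads per peak, which the authors matched in distribution over the 6 ChIP libraries, so any shift of the whole mark was removed. Input values were plain log2 counts. For H3K9me2, the deposited signal averaged reads over the MACS peaks of a region, and was multiplied by the number of peaks to give whole reads. Shorter deposited tables gave the peaks past the authors' own test, as read counts for H3K9me2 and log2 values for H3K9me3, with adjusted p-values, which were left out, as were 8 columns of standard deviations.

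For H3K9me3, limma 3.58.1 (trend) was run over all peaks, and for H3K9me2 the edgeR 4.0.16 quasi-likelihood test (TMM) over all regions, both two-sided with genotype as the single term and Benjamini-Hochberg adjustment. H3K9me3 reads were recovered from the rank of each value among the distinct values of its library, which was exact at every TLR peak. Ratios over input had 1 read added and were scaled to reads in peaks, so they compare a peak with all peaks together. Gene models came from GENCODE M21 and RefSeq, and sequences from GRCm38.p6. The genes, lists and tests were chosen with earlier results of these data known. Named peaks were all those of genes other than Tlr4; at Tlr4 the peaks of smallest p, extreme difference, widest, highest and lowest ratio over input, and those on exons; and, of the pathway, called peaks or the smallest p per role. Replicates were separate samples by label, and p-values measure the spread between them.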

Additional observations from a re-analysis of the deposited data

How the results depend on the processing

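Calls at TLR genes were recomputed under other tests, filters, thresholds and input treatments and without each library. The 3 higher calls became 0 with limma without trend, where the adjusted p was 0.085 and 0.067 at the Tlr1 coding peaks and 0.31 at Tlr2. The 0 lower calls became 1 with edgeR on recovered counts or a mean log2 of at least 5, at the widest Tlr4 peak in both, and 4 with the input ratio subtracted. Without each library in turn, lower calls stayed at 0, higher calls ran from 2 to 3, the Tlr2 difference from 0.42 to 0.62, and the Tlr4 median from -0.24 to -0.12. The Tlr2 call was lost with DESeq2 (0.52, adjusted p = 0.12), with the input ratio subtracted (0.23) and in limma without trend (0.52). The Tlr4 median was -0.23 with the input ratio subtracted and -0.26 with a mean log2 of at least 5. Lower calls at pathway genes fell from 5 to 2 in DESeq2, 0 in limma without trend and 3 at an adjusted p under 0.01. They numbered 2 to 4 without each library (2 without WT replicate 3, 3 without WT replicate 1, KO replicate 1 or KO replicate 2). With the input ratio subtracted they rose to 7, in a test that called 10.3% of all peaks lower. Tlr4 over input was -0.067 (WT) and -0.13 (KO) with the input of the other genotype. The cause of these changes was not tested. Signs did change at single Tlr4 peaks, none of them called in the fit reported: 11 of 34 had the other sign with the input ratio subtracted, and 4 to 6 of 34 without a library. Tlr4 over input in WT, near 0, was -0.0077 with 5 reads added. The Tlr4 median and the differences at Tlr1, Tlr2 and Tlr6 kept their sign in every fit run. The 24 H3K9me2 counts at TLR regions stayed at 0. The sample titles did not say whether replicate numbers pair the samples. Deviations at equal replicate numbers had correlations between -0.01 and 0.01 for H3K9me3 and of 0.18, 0.011 and 0.086 for H3K9me2. The fit with a replicate block gave 3 higher and 0 lower calls at TLR genes and 5 lower at pathway genes. In this fit the Tlr2 difference was 0.52 (limma adjusted p = 0.0078), so the block changed no call.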

Other observations

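Between Tlr1 and Tlr6, a short H3K9me2 region of 600 bp (chromosome 5, 64941001 to 64941600) was listed at neither gene. It held 25, 27 and 29 reads in WT1, WT2 and WT3 and 71, 38 and 83 in KO1, KO2 and KO3. Scaled to depth, these were 0.87, 1.19 and 1.45 RPM in WT and 1.83, 2.01 and 2.09 in KO, so the KO libraries lay above the WT libraries. The log2 difference was 0.78 (SE 0.24), and it did not pass the threshold over all regions (edgeR adjusted p = 1.00). The region was picked after its values were seen. It lies 7438 bp from Tlr1 and 10431 bp from Tlr6, and the inputs held 9 (WT) and 13 (KO) reads.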
